A study of Homo sapiens with 6 samples.

Results

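A set of 1016 E2F1 binding sites was found in all 3 E2F1 peak lists of MDA-MB-231 cells, out of 1056 peaks called in untreated cells, 15703 in DMSO-treated cells and 14276 in GSK126-treated cells. These core sites were selected on their calls: an untreated peak was kept if it shared at least 1 bp with a DMSO peak and at least 1 bp with a GSK126 peak. MDA-MB-231 is an established line from a triple-negative breast cancer, in which the study asked where the transcription factor E2F1 and the histone mark H3K27me3 lie on chromatin. E2F1 was precipitated with Santa Cruz antibody sc-251 from untreated cells, from cells kept 72 h in the vehicle DMSO, and after 72 h with the EZH2 inhibitor GSK126 at 1 µM. H3K27me3 was precipitated with an Active Motif antibody from cells carrying a control shRNA and from cells carrying an shRNA against E2F1 (shE2F1), each 24 h of lentivirus followed by puromycin at 2 µg/ml for 72 h. Each group was 1 library of 1 cell line, so no difference between groups has a replicate check, no test between conditions was made, and intervals cover counting error only. The DMSO cells, not the untreated cells, are the vehicle control of the GSK126 cells. Peak lists carry no reading of RNA or protein, so neither the identity of the line nor the loss of E2F1 could be checked here.

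E2F1 is a DNA-binding protein that pairs with a DP partner and is held inactive by the retinoblastoma protein until cyclin-dependent kinases release it late in G1. Its best known targets are the genes that copy DNA, supply nucleotides, repair damage and drive cells into S phase and mitosis, and it binds close to their transcription start sites (TSSs). EZH2 is the catalytic subunit of Polycomb repressive complex 2, which places H3K27me3, a mark of silenced genes, and GSK126 blocks that catalysis.

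The E2F motif was searched on both strands within 100 bp of each untreated summit as any of 4 words, the word TTCCCGC being the first, the word TTCGCGC the next, then the word TTGCCGC and last the word TTGGCGC. The sequences below, read from GRCh38 5′ to 3′ on the strand of the motif, show how it sits at the strongest core sites and at the strongest motif-bearing core site, beyond those already shown, of each of 6 gene groups, with the word nearest the summit in capitals and any other word left in lower case. The first 4 belong to the strongest core sites that hold the motif, at FAM111A (chr11:59144788-59144814, plus strand), CDKN2D (chr19:10569254-10569314, minus strand), MDC1/TUBB (chr6:30717538-30717564, plus strand) and NOLC1 (chr10:102152076-102152136, minus strand). Windows are 61 bases, or 27 where the longer one would run into an annotated untranslated exon.
FAM111A: cctgctccgtTTCCCGCccagctggag
CDKN2D: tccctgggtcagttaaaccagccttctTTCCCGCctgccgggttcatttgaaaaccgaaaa
MDC1/TUBB: caccacccacTTCCCGCgcagttccaa
NOLC1: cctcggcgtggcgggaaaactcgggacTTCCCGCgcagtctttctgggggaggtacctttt

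All 4 carried the same word, TTCCCGC, whose middle base lay 1 bp from the summit at FAM111A, 13 bp at CDKN2D, 6 bp at MDC1/TUBB and 3 bp at NOLC1. The next sites stand for DNA replication (PCNA, chr20:5119361-5119421, plus strand), deoxynucleotide synthesis (TYMS, chr18:658391-658451, minus strand), DNA repair (BLM, chr15:90717358-90717384, plus strand), mitosis (KIF15/KIAA1143, chr3:44761741-44761767, minus strand), the E2F family (E2F3, chr6:20401845-20401871, plus strand), histone chaperones (DEK, chr6:18264550-18264576, minus strand) and the E2F1 gene itself (chr20:33686388-33686414, minus strand).
PCNA: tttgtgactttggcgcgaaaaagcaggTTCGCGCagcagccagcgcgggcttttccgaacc
TYMS: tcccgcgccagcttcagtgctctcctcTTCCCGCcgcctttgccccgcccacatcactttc
BLM: gagccagggcTTGGCGCggcggccgtg
KIF15/KIAA1143: aaatttgaatTTGGCGCttggatcgga
E2F3: cgggaggaccTTGGCGCgtaaaccgta
DEK: ggtcgccgcaTTCCCGCtctccttccc
E2F1: caaaaaggatTTGGCGCgtaaaagtgg

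The words at BLM, KIF15/KIAA1143, E2F3 and E2F1 were TTGGCGC. Some strong core sites held none of the 4 words within 100 bp of the summit. The strongest of them were CENPK/PPWD1 (chr5:65563162-65563188, plus strand) and EZH2 (chr7:148884802-148884862, plus strand), shown around the summit with no base in capitals.
CENPK/PPWD1: cttctgcgcgcgctgcatgcccattgg
EZH2: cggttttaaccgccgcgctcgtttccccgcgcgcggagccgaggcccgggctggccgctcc

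Both peaks held a motif word farther from the summit, elsewhere within the called peak.

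Core sites made up nearly the whole untreated list, and each of them had exactly 1 partner in each of the other lists. They covered 0.359 Mb on 23 chromosomes, and 995 DMSO peaks and 993 GSK126 peaks were partners, since 42 core sites shared a DMSO peak and 46 shared a GSK126 peak with another core site. Of the 1016, 913 lay whole inside their DMSO partner and 1010 inside their GSK126 partner. The untreated peaks were narrower, with a median width of 307 bp against 890.5 bp for the DMSO and 1262.5 bp for the GSK126 partners. Summits moved little between libraries: the median shift from the untreated summit was 27 bp to the DMSO summit and 25 bp to the GSK126 summit. The shift was at most 50 bp at 682 sites (67.1%) for DMSO and at 695 (68.4%) for GSK126, and above 200 bp at 132 and 140.

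The edge of the set was set by overlap alone. The member with the smallest DMSO overlap was at CYP1B1, where 39 bp of a 251 bp peak were shared, followed by RAB11B with 47 bp and TRIM13 with 48 bp. Just outside it stood SNX7, whose untreated peak lay 49 bp from the nearest DMSO peak while overlapping a GSK126 peak, and PALS1 at 132 bp. Of the 40 untreated peaks that were not core, 31 overlapped a GSK126 peak only and 9 overlapped neither list, and none overlapped a DMSO peak only. They were weak for the untreated list, with a median fold of 5.78 (range 4.70 to 10.7) and a median of 11 fragments at the summit, and the strongest of them lay at RAB1A and KATNA1. Their share at promoters was 75.0% (exact 95% interval 58.8 to 87.3).

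Strength was read as the fold enrichment the peak caller gave at each summit, that is fragments at the summit over the local background, each with 1 added. Across the core sites fold ranged from 3.62 to 44.6 in untreated cells (median 8.25), from 2.41 to 61.1 in DMSO (median 11.8) and from 3.62 to 105 in GSK126 (median 20.5). Fold and p-value together gave back whole fragment numbers at every peak of the 3 lists, to a tolerance of 2e-05 of the p exponent. Core summits rested on a median of 19 fragments in untreated cells (7 to 98), 65 in DMSO (14 to 398) and 107 in GSK126 (19 to 640), so the untreated values carry the widest counting error. The lowest background of a list, which moves with its depth, was 0.668 fragments for untreated cells, 1.82 for DMSO and 1.70 for GSK126. With 1 added to both terms, fold is held down where the background is low, so depth and binding cannot be told apart in fold across lists.

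The strongest untreated site covered the start of FAM111A, which encodes a chromatin-bound protease linked to DNA replication. Its fold was 44.6 in untreated, 37.5 in DMSO and 69.5 in GSK126, from 84, 285 and 495 fragments. The site of CDKN2D, an inhibitor of the cyclin D kinases, came next in untreated cells and was the strongest peak of the whole DMSO and GSK126 lists, with fold of 41.7, 61.1 and 105. A peak at the neighbouring starts of MDC1, a scaffold of the DNA damage response, and TUBB, a beta-tubulin, had fold of 37.6, 46.6 and 75.5. NOLC1, which encodes a nucleolar phosphoprotein, had 35.7, 26.4 and 43.4.

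Among the other 6 of the 10 strongest untreated sites, some kept their rank in the larger lists and some did not. CENPK/PPWD1, the shared start of a kinetochore gene and a splicing-associated gene, had 31.8, 46.8 and 79.1 and ranked 6, 7 and 7. EZH2 itself had 31.3, 48.7 and 96.0, ranking 7, 6 and 3, with its summit 511 bp upstream of the nearest TSS. HMGB2, a chromatin protein of proliferating cells, had 28.3, 34.1 and 55.5, and KIF15/KIAA1143, at the start of a spindle motor gene, had 27.5, 27.1 and 52.2. GORASP2, a Golgi stacking protein, had 31.2, 20.2 and 35.5, and ranked 8 in untreated cells but 227 and 230 in the other lists. A site 1126 bp from the TSS of the histone gene H2BC17 had 32.3, 19.6 and 36.0, with ranks of 5, 242 and 220, and shared its DMSO and GSK126 peaks with the core site at H2AC17/H2BC17/H3C12. Other core sites stood higher in the treated lists than in the untreated one: CSTF3, a cleavage factor of messenger RNA 3′ ends, had 12.8, 51.0 and 101, and ranked 172 in untreated cells but 4 and 2 elsewhere. TMEM18 (21.2, 52.8 and 85.4), LIN52/ALDH6A1 (24.0, 51.4 and 73.6) and FAM111B (26.98, 49.0 and 90.3) completed the 5 strongest of DMSO, and LIN52 is a subunit of the DREAM complex that represses cell cycle genes.

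At the low end, the weakest untreated member was at ZW10, a kinetochore gene, with fold of 3.62, 8.43 and 16.03 from 23, 54 and 97 fragments. The lowest DMSO fold was at KIF22 (5.97, 2.41 and 5.88) and the lowest GSK126 fold at FAM81A/MYO1E (5.40, 3.59 and 3.62).

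Core sites were mostly, but not always, strong peaks of the larger lists. Their median rank was 826.5 in DMSO and 801.5 in GSK126, 699 (68.8%) stood in the top 10% of the DMSO list and 683 (67.2%) in that of GSK126, and 49 and 13 stood in the lower 50%. Of the 100 strongest peaks, 94 in DMSO and 95 in GSK126 were partners of at least 1 core site. The order among core sites was looser: of the 100 strongest in untreated cells, 39 were among the top 100 of DMSO and 47 among those of GSK126. Spearman's rho of fold over the 1016 sites was 0.593 for untreated with DMSO, 0.593 for untreated with GSK126 and 0.948 for DMSO with GSK126. The same on fragments was 0.780, 0.792 and 0.958; sites are not replicates, and each column is 1 library.

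**Figure D1:**
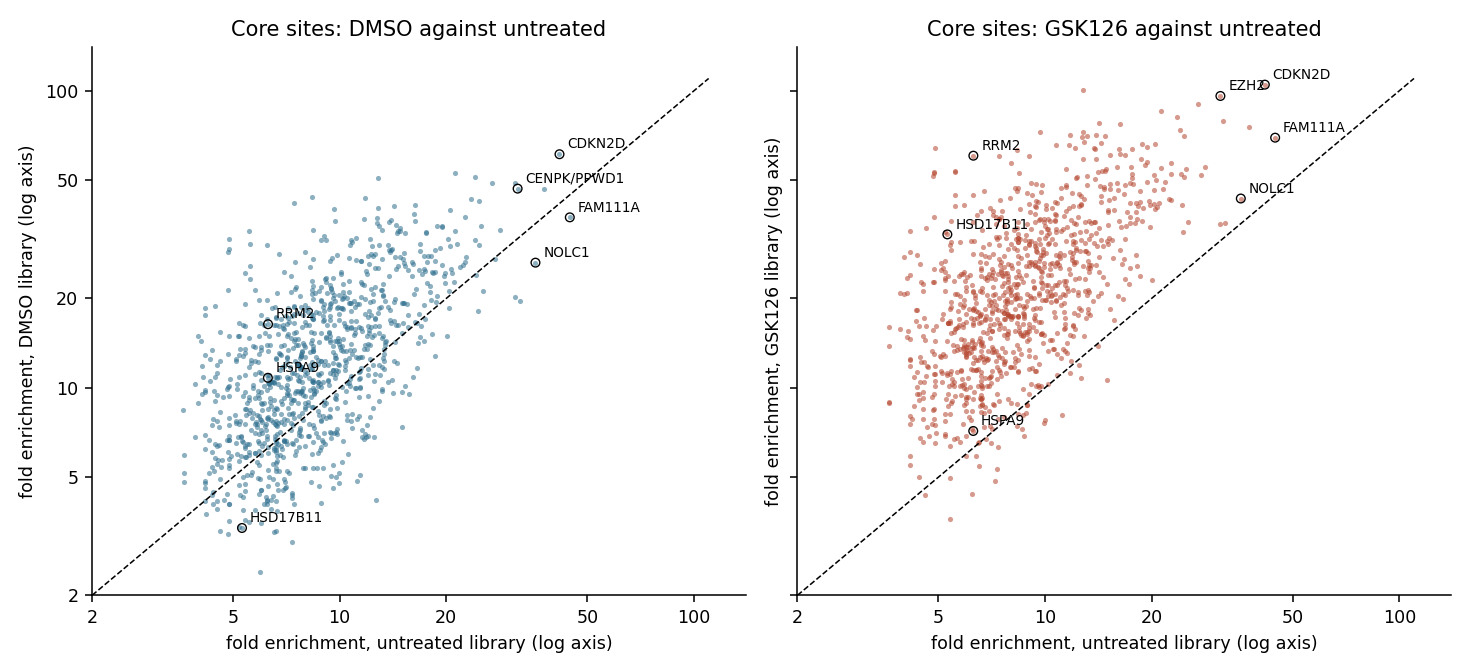
Fold enrichment of the 1016 core sites in the DMSO (left) and GSK126 (right) libraries against the untreated library, 1 point per site on log axes, with the line of equal fold dashed and some named sites circled. In the DMSO panel 774 sites lie above the line, and in the GSK126 panel 988 do.

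The commonest order of fold was GSK126, then DMSO, then untreated, held by 771 of 1016 sites (75.9%, exact 95% interval 73.1 to 78.5). GSK126 above untreated above DMSO followed with 214 (21.1%), and untreated above GSK126 above DMSO with 27. DMSO led at 3 sites, and 1 site fell in the order untreated, DMSO, GSK126. On fragments divided by the lowest background of each list, the first order held 741 sites (72.9%). When each fold was instead placed by percentile within its own list, DMSO above GSK126 above untreated became the commonest, with 548 sites (53.9%), and GSK126 above DMSO above untreated fell to 432 (42.5%). The untreated list holds few peaks besides the core, so a percentile there is set among the core sites themselves.

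Fold was higher in GSK126 than in DMSO at 1012 core sites (99.6%), against 93.3% of all 7385 DMSO peaks that overlapped a GSK126 peak. The median log2 ratio was 0.79 at core sites, 0.81 on fragments over the lowest background, and 0.71 at the promoter peaks that DMSO and GSK126 shared without an untreated peak. The exact interval of the fragment ratio lay wholly above 1 at 908 core sites (89.4%), against 55.6% of all peaks shared by both lists, and below 1 at none. Such an interval narrows as fragments rise, and median DMSO fold was 11.8 at core sites and 5.52 at the other shared promoter peaks. For DMSO over untreated, the median log2 ratio was 0.46 on fold and 0.30 on fragments, with 207 intervals (20.4%) wholly above 1 and 9 below. The untreated peaks with a DMSO partner are the core sites themselves, so this comparison has no wider background. For GSK126 over untreated the medians were 1.25 and 1.12, and 805 intervals (79.2%) lay above 1, against 77.3% of all untreated peaks with a GSK126 partner. The same GSK126 library enters both of its comparisons, as the DMSO library does in its own.

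A few sites stood far from the median ratio of GSK126 to DMSO, most of them where the GSK126 peak was wide and had its summit elsewhere. HSD17B11, a steroid dehydrogenase of lipid droplets, had fold of 5.30 in untreated, 3.37 in DMSO and 32.8 in GSK126, from 8, 21 and 99 fragments, a log2 ratio of 3.28, but its GSK126 summit lay 1241 bp from the untreated one. A site 288 bp upstream of RRM2, the regulatory subunit of ribonucleotide reductase, had fold of 6.28, 16.4 and 60.4, a log2 ratio of 1.88. It shared its GSK126 peak, with a summit 2142 bp away, with a further core site at the same gene. MEPCE/ZCWPW1 (log2 2.01, shift 1579 bp) and BDH1 (1.67, shift 1118 bp) were of the same kind. HADH, an enzyme of fatty acid oxidation, had its GSK126 summit 7 bp away and fold of 9.90, 11.4 and 36.9, from 18, 48 and 122 fragments, a log2 ratio of 1.70.

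At the other end HSPA9, the mitochondrial chaperone mortalin, had 6.27, 10.8 and 7.15, a log2 ratio of -0.59, with the GSK126 summit 547 bp away. KTI12 (-0.27), PARN (-0.11) and the interferon-response factor IRF1 (-0.09) were also below 0. All 4 of these rested on no more than 61 fragments in either treated library. Over the 822 core sites with unshared partners whose summits lay within 200 bp, a set chosen after the data were seen, the log2 ratio ran from -0.11 to 1.70 with a median of 0.80, and 76.2% kept the order GSK126, DMSO, untreated. The highest of these after HADH were CACYBP (1.65), the checkpoint kinase gene ATR (1.48), IL6ST (1.45) and FBXO33 (1.44).

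Core summits hugged transcription start sites. In 960 of 1016 (94.5%, exact 95% interval 92.9 to 95.8) the summit lay within 1 kb of an annotated TSS, and in 597 (58.8%) within 100 bp. Of the 6390 DMSO peaks that overlapped a GSK126 peak and no untreated peak, 84.1% lay within 1 kb. At the 960 promoter sites the median distance was 53.5 bp, against 78.0 bp at the 5376 promoter peaks of that second set. The summit stood upstream of the TSS in 576 of the 960 (60.0%, 56.8 to 63.1), against 49.9% (48.6 to 51.3) at the others. Positions are of untreated summits at core sites and of DMSO summits at the others, so different libraries are compared. By annotation, 328 core summits fell in an untranslated exon, 308 between genes, 230 in an intron, 108 in an exon of a noncoding transcript and 42 in coding sequence.

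A protein-coding TSS lay within 1 kb of 919 core sites, and 230 of the 1016 (22.6%) had more than 1 protein-coding gene there. Pairs of protein-coding genes read away from each other stood at 197 core promoters, or 20.5% (18.01 to 23.2) of the 960, against 11.9% (11.1 to 12.8) of the other shared promoter peaks. KIF15 with KIAA1143, CENPK with PPWD1 and MDC1 with TUBB were among the core pairs, and a peak at such a pair cannot be given to 1 of its genes.

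The strongest core sites beyond 1 kb from any TSS, out of 56, were near histone gene H2BC17 (above), in GRIN1, COL4A2, RASIP1 and LMNB1. GRIN1, a glutamate receptor subunit, held a site in an intron 1562 bp from its TSS with fold of 23.5, 43.1 and 81.3, which ranked 12 in DMSO and 6 in GSK126. The COL4A2 site lay 12096 bp from the nearest TSS, with fold of 20.8, 24.3 and 40.6. The site in LMNB1, which encodes the nuclear lamina protein lamin B1, lay in an intron 1064 bp from the TSS, had 3 E2F words near its summit and fold of 18.1 in untreated cells. Its DMSO and GSK126 peaks were wide ones shared with the core site at the LMNB1 start, where their summits lay, so their fold of 27.8 and 41.8 belongs to that start. Of the 56 sites away from TSSs, 36 (64.3%, 50.4 to 76.6) held the motif.

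**Figure D2:**
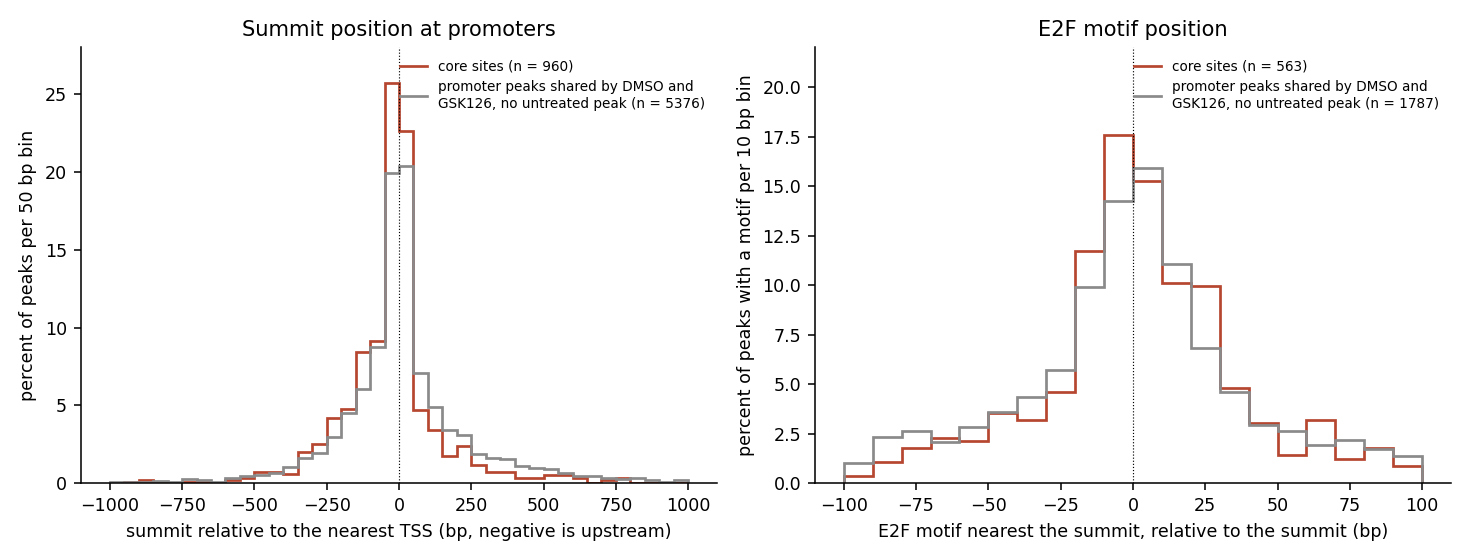
Left, summit position relative to the nearest TSS in 50 bp bins, as percent of peaks, for the 960 core promoter sites and the 5376 other promoter peaks shared by DMSO and GSK126. Right, position of the E2F word nearest the summit in 10 bp bins, as percent of the peaks that hold one (563 and 1787). Core summits pile up on both sides of the TSS, with 25.7% in the bin from -50 to 0 and 22.6% in the bin from 0 to 50. In both sets the words pile up at the summit. Summits are those of the untreated list for core sites and of the DMSO list for the others.

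The E2F motif lay within 100 bp of the summit at 563 core sites (55.4%, 52.3 to 58.5). At the 960 core promoter sites alone the share was 54.9%. The motif was found at 33.2% (32.0 to 34.5) of the other shared promoter peaks, searched around their DMSO summits. Windows of the same 201 bases centred on the TSSs of all 19962 protein-coding genes held it in 11.6%. The other peaks were weaker, with a median DMSO fold of 5.52 against 11.8 at core sites. The sets were not matched on fold, for this word or for those below. At least 2 words were present at 132 core sites (12.99%), against 4.69% of the other peaks. Where there was a word, the median distance of the nearest from the summit was 17 bp at core sites and 19 bp at the others. TTCCCGC was the commonest, at 37.7% of core sites, followed by TTGGCGC (12.7%), TTCGCGC (8.37%) and TTGCCGC (4.82%). Search of the whole called peak found a word at 671 core sites (66.0%), including 119 of the 453 with none near the summit. In the 527 core promoter sites with a word near the summit, that word lay a median of 12 bp upstream of the TSS, and upstream in 307 (58.3%).

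Other promoter words were counted in the same windows. CCAAT, the site of NF-Y, was present at 32.1% (29.2 to 35.1) of core sites and 20.3% (19.3 to 21.4) of the other shared promoter peaks. TTTGAA, the cell cycle homology region read by the DREAM and MuvB complexes, was present at 11.3% (9.44 to 13.4) and 5.23% (4.65 to 5.86). The shares of all TSS windows were 26.0% for CCAAT and 7.41% for TTTGAA. The GC box GGGCGG was at 70.0% of core sites and 69.3% of the other peaks, and the ETS word CCGGAAG at 9.84% and 10.2%. The words of YY1 (ATGGCGG, 7.48% and 8.00%), AP-1 (TGANTCA, 2.66% and 2.55%) and the E-box (CACGTG, 5.91% and 5.58%) differed as little, within their intervals. The NRF1 word GCATGCGC was at 3.94% (2.83 to 5.32) and 2.59% (2.18 to 3.05), and the CRE word TGACGTCA at 2.46% (1.60 to 3.61) and 1.45% (1.15 to 1.81). Both sets were rich in G and C, with medians of 67.7% and 70.6% in the window.

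The motif and the strength of a site went together in each list. Core sites with 0, 1 and at least 2 words had a median fold of 7.42, 8.67 and 9.89 in untreated cells, 10.1, 12.5 and 18.7 in DMSO, and 17.4, 21.9 and 31.5 in GSK126. With the sites split at the quartiles of untreated fold, the share with a word was 42.5% in the lowest, 50.4% and 58.3% in the middle ones and 70.5% in the highest. The quartiles of fold overlapped between the motif groups in all 3 lists, and strong sites such as EZH2 and CENPK/PPWD1 held no word within 100 bp of the summit.

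**Figure D3:**
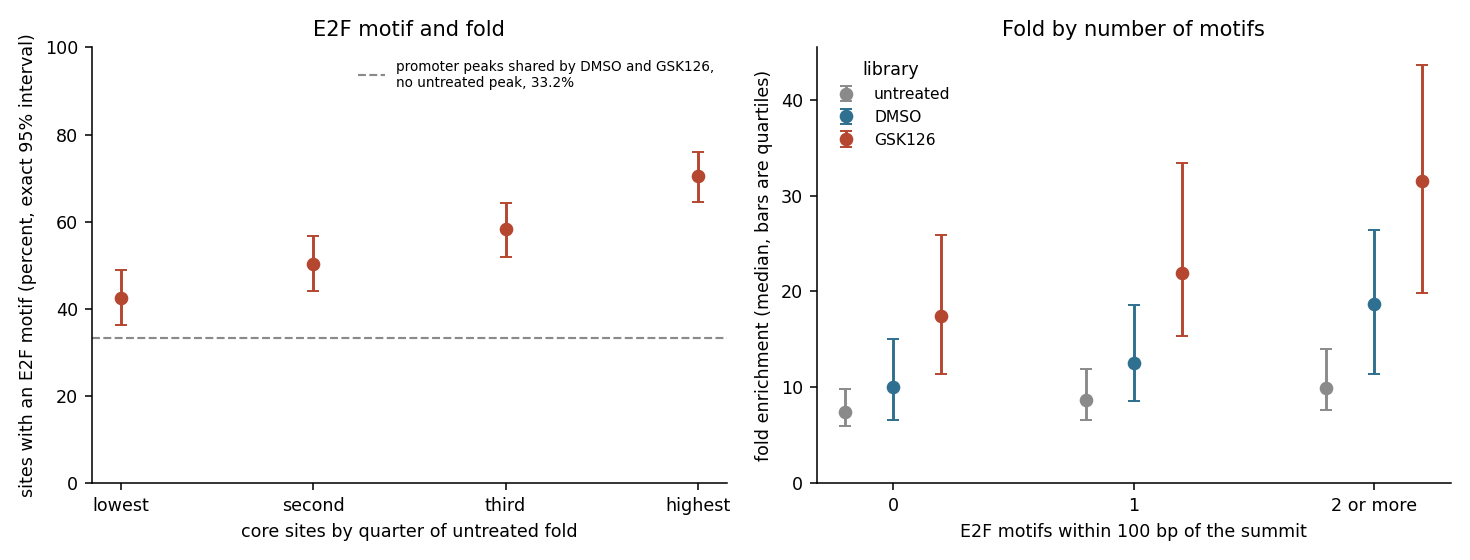
Left, percent of core sites with an E2F word within 100 bp of the summit with the sites split at the quartiles of untreated fold, with exact 95% intervals, and the share at the other shared promoter peaks (33.2%) dashed. Right, median fold with quartiles of core sites with 0, 1 and at least 2 words, by library, rising from 7.42 to 9.89 in untreated and from 17.4 to 31.5 in GSK126.

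Core sites lay within 1 kb of a TSS of 1139 protein-coding genes, which is 5.71% of the 19962 annotated. Against that background, shares of the gene lists are descriptions. The lists were drawn up with the class of E2F targets in mind and with earlier results of these data known. DNA repair and checkpoint genes (32 of 58, 55.2%) and DNA replication genes (31 of 58, 53.4%) had the highest shares, while none of the 39 HOX genes and none of the 20 luminal and epithelial genes had a core site. Counts of 0 allow a share of up to 9.03% for the HOX genes and 16.8% for the luminal genes at the upper end of the exact 95% interval. The contrast is not particular to the core. Repair genes had a DMSO peak at 56 of 58 and a GSK126 peak at 58, and mitosis genes at 51 and 56 of 56. HOX genes had one at 0 and 5 of 39, and luminal genes at 2 and 5 of 20. Over all protein-coding genes the shares were 33.5% and 51.5%.

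Among replication genes, the core held 4 MCM helicase genes of the MCM2-7 ring (MCM3, MCM4, MCM5 and MCM7), the loading factors CDC6 and CDT1 with the CDT1 inhibitor GMNN, both DBF4 and CDC7 of the kinase that fires origins, 3 GINS genes, and the clamp PCNA with its loaders RFC1, RFC2 and RFC4. PCNA had fold of 24.7 in untreated, 42.4 in DMSO and 70.5 in GSK126, with 4 words near the summit. CDC6 had 24.3, 24.0 and 41.3, CDC7 had 22.6, 37.6 and 57.0, and CLSPN, the adaptor of the ATR checkpoint, had 20.6, 25.0 and 50.0. Nearly all the listed replication genes had a peak in the larger lists (55 of 58 in DMSO and 56 in GSK126), where 33.5% and 51.5% of all protein-coding genes had one. Of the 31 core replication sites, 24 held the motif, and their median fold was 11.99, 22.7 and 41.3, against 8.25, 11.8 and 20.5 over all core sites.

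The genes of deoxynucleotide synthesis contributed 8 of 20. TYMS, which makes thymidylate, was strongest with 20.4, 39.5 and 65.9, followed by RRM1, the large subunit of ribonucleotide reductase, with 12.3, 17.6 and 29.2, and TK1, thymidine kinase, with 11.5, 26.8 and 54.3. RRM2, DUT, DCK, CTPS1 and PAICS were the others.

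Repair genes with a core site spanned recombination (among them RAD54L, XRCC2, XRCC3, BLM and BRIP1), mismatch repair (MSH6), 5 FANC genes of the Fanconi anaemia pathway and the checkpoint kinases ATM, ATR, CHEK1 and WEE1. BLM, the helicase lost in Bloom syndrome, had fold of 15.3, 25.8 and 48.5, and MSH6 had 14.3, 27.5 and 47.7. The mitosis list (25 of 56, 44.6%) held 7 centromere and kinetochore genes of the CENP series, the outer kinetochore pair SPC24 and SPC25, and the kinesins KIF2C, KIF11, KIF15, KIF18A and KIF23. SPC25 had 18.5, 24.5 and 45.8, and AURKB, a kinase of the chromosomal passenger complex, had 15.1, 19.3 and 38.9. The E2F motif was held by 12 of the 25 mitotic sites, 24 of 31 replication sites and 24 of 32 repair sites, beside 55.4% of all core sites, and the differences were not tested. Cohesin and its regulators contributed 7 of 14, led by PDS5A with 18.8, 20.3 and 40.4.

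The network around E2F1 was itself in the core, with 10 of 19 genes (52.6%, 28.9 to 75.6). E2F3 had fold of 24.1, 31.3 and 52.3, and RBL1, which encodes the pocket protein p107, had 17.6, 33.3 and 63.5. TFDP1, the usual DP partner, had 15.2, 28.4 and 60.7. The E2F1 gene had 13.3, 20.5 and 31.7, its summit 20 bp upstream of the TSS and 4 bp from the word printed above. E2F7 and E2F8, the atypical repressor members, RB1, LIN52, RBBP4 and MYBL1 were the others, and 9 of the 10 sites held the motif. Cyclin and kinase genes (9 of 23) were CCNE2, CCNA2, CDK2, CDC25A, SKP2, FBXO5 and the inhibitors CDKN1B, CDKN2C and CDKN2D, with CDKN2C at 19.7, 23.7 and 42.7 and the phosphatase gene CDC25A at 17.6, 26.6 and 52.6.

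Chromatin genes were also present. Histone chaperones and histone locus factors had 9 of 18, among them NPAT and CASP8AP2, which act at histone gene clusters, SLBP, which binds histone messenger RNA, and DEK, with fold of 25.0, 35.1 and 54.6. A site at a shared start counts in the list of each of its genes, as at MDC1/TUBB and CBX5/HNRNPA1. NPAT and ATM, of the repair list, had the same untreated fold of 6.30. The replication-dependent histone genes themselves had 5 of 64 (7.81%, 2.59 to 17.3), beside the 5.71% of all genes. These 5 genes lay at 3 sites, with H2AC17, H2BC17 and H3C12 at the same one, and the interval counts clustered genes as independent. At that site the DMSO summit lay 1308 bp and the GSK126 summit 1311 bp from the untreated one. H2AC17 and H2BC17 had no DMSO or GSK126 summit within 1 kb of a TSS, and H3C12 had none of DMSO. On the Polycomb and DNA methylation list (8 of 27, 29.6%), EED (10.7, 19.3 and 30.5) joined EZH2, both subunits of Polycomb repressive complex 2, with the maintenance methyltransferase DNMT1 at 10.7, 22.9 and 36.5 and the remodeller HELLS at 24.7, 30.3 and 51.1.

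General growth functions were also represented, with splicing 13 of 40, nucleolus 10 of 30, nuclear pore 10 of 30 and tubulins with their cofactors 8 of 18. Examples were SNRPB (22.6, 26.5 and 52.6), NPM1 (16.9, 30.6 and 60.7), NUP155 (18.6, 29.1 and 58.9) and TUBA1B (11.5, 26.6 and 48.1). Of 19 apoptosis genes linked to E2F1, 3 had a core site, PMAIP1 and TP73 among them, none with an E2F word near the summit. Of 15 housekeeping genes, EEF1A1 and TFRC had one.

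**Figure D4:**
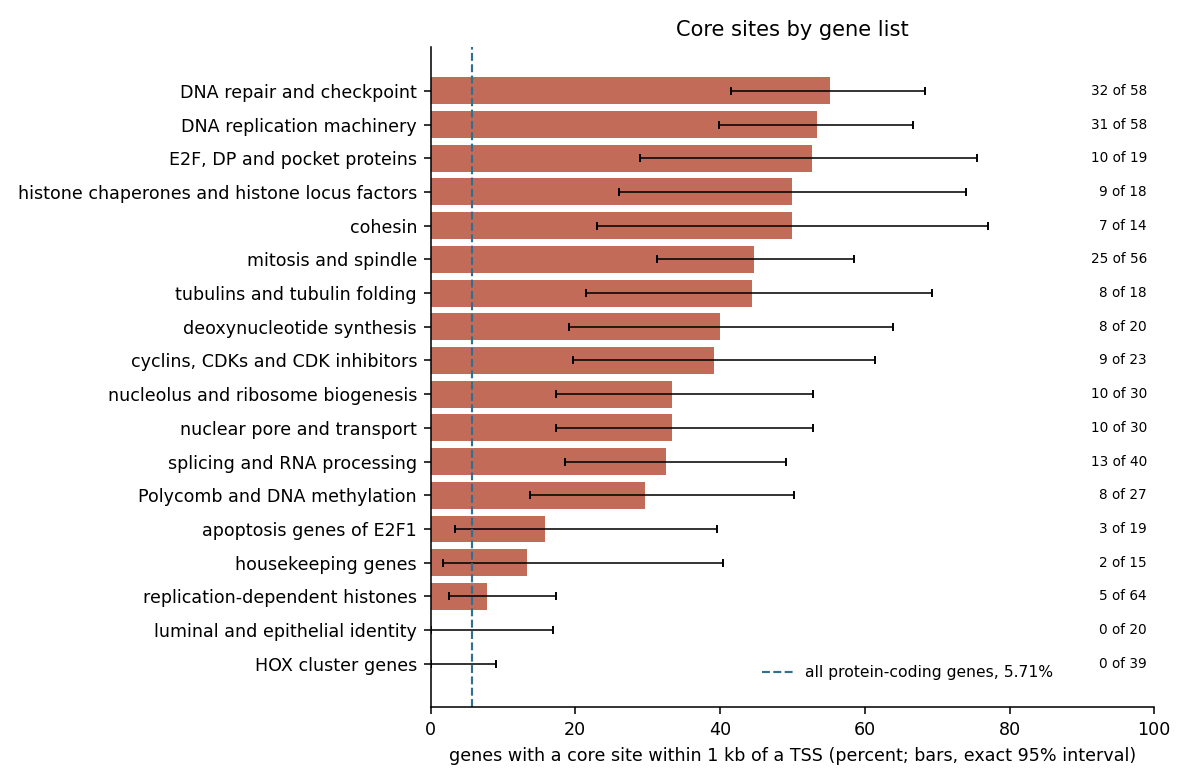
Percent of the genes on each of 18 lists with a core site within 1 kb of a TSS, with exact 95% intervals and the number of genes at the right. The dashed line marks all protein-coding genes (5.71%), and bars run from 55.2% for DNA repair down to 0 for HOX and luminal genes.

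H3K27me3 peaks were rare over the core sites in control shRNA cells and frequent in shE2F1 cells. A peak overlapped 119 core sites (11.7%, exact 95% interval 9.80 to 13.9) in the control and 496 (48.8%, 45.7 to 51.9) in shE2F1, a difference of 37.1 percentage points (34.1 to 40.1). Both libraries had one at 118 sites, shE2F1 alone at 378, the control alone at 1 and neither at 519. The site marked in the control alone was at RTTN, where the peak had a -log10 q of 1.44. The 5376 other shared promoter peaks gave 11.9% and 52.2%, a difference of 40.3 points (38.9 to 41.6). They are E2F1 peaks of both DMSO and GSK126, so they do not stand for promoters without E2F1. Overlap was read on untreated peaks at core sites and on DMSO peaks at the others. The median width was 307 bp at core sites and 436 bp over the whole DMSO list, and a wider peak overlaps more by construction. At the 960 core promoters the shares were 12.3% and 51.0%, and at the 56 core sites away from TSSs 1.79% and 10.7%. With 1 library for each shRNA, the shRNA and the library cannot be told apart.

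On the level of genes, 220 of the 1139 core genes (19.3%, 17.1 to 21.7) had an H3K27me3 peak within 1 kb of a TSS in the control, below the 27.1% of all protein-coding genes. In shE2F1 the count was 709 (62.2%, 59.4 to 65.1), above the 51.2% of all genes.

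The marked stretches over core sites were short, and their median -log10 q was 3.26 in the control and 3.29 in shE2F1. The median width of the overlapping peak was 319 bp in the control and 541 bp in shE2F1, against 722 and 811 bp over each whole list. Their median fold was 3.78 and 3.58, above the 3.17 and 2.95 of the whole lists. With a -log10 q of at least 5, 3.74% of core sites in the control and 16.8% in shE2F1 were marked. Coverage was highest at the E2F1 summit, where 7.09% of core sites lay inside a control peak and 38.2% inside an shE2F1 peak. At 500 bp on either side these shares were 1.57% and 1.28% in the control and 13.3% and 12.2% in shE2F1. With 58.8% of core summits within 100 bp of a TSS, a centre at the summit cannot be told from a centre at the TSS. The other shared promoter peaks gave 7.09% and 39.0% at their summits. Farther out the core had less: at 1500 bp downstream on the chromosome 0.197% in the control and 1.38% in shE2F1, against 1.79% and 2.98% at the others.

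**Figure D5:**
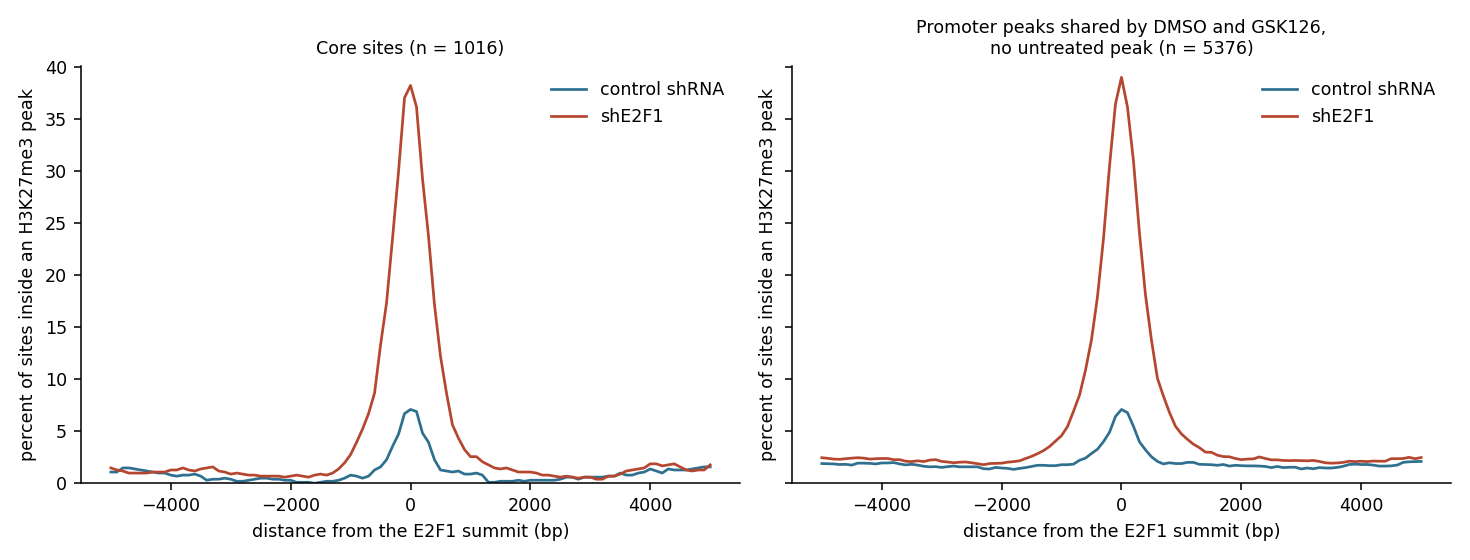
Percent of sites inside an H3K27me3 peak by distance from the E2F1 summit in steps of 100 bp out to 5000 bp, for the 1016 core sites (left) and the 5376 other promoter peaks shared by DMSO and GSK126 (right), in control shRNA and shE2F1 cells. Both panels peak at the summit, at 7.09% in the control and at 38.2% and 39.0% in shE2F1.

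AHCY and XRCC2 were among the 5 strongest H3K27me3 calls at core sites in both libraries. At AHCY, which breaks down S-adenosylhomocysteine, the -log10 q was 24.6 in the control and 68.0 in shE2F1, and the fold 8.72 and 14.96. At XRCC2, a gene of homologous recombination, the -log10 q was 26.1 and 47.5. PIDD1/RPLP2 (14.7 and 47.0), NDOR1/TMEM203 (7.10 and 41.3) and BUB3 (18.98 and 38.3), a spindle checkpoint gene, followed in shE2F1. At ZNF274, which encodes a zinc finger repressor, the control had the higher value, 28.1 against 24.6. None of these was among the 10 strongest E2F1 sites.

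E2F1 strength overlapped widely between marked and unmarked sites. Median untreated fold was 8.39 at the 118 sites marked in both libraries, 8.07 at the 378 marked in shE2F1 alone and 8.27 at the 519 marked in neither. In DMSO the medians were 13.3, 12.3 and 10.9, and in GSK126 22.6, 22.1 and 19.6. With an E2F word 46.2% of core sites were marked in shE2F1, and without one 52.1%, with overlapping intervals.

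By gene list, cohesin genes had 6 of 7 marked in shE2F1 and the E2F network 8 of 10, beside 48.8% of all core sites. In the control 3 and 1 of these sites were marked, beside 11.7% of all core sites. With the control count in brackets, Polycomb and DNA methylation genes had 6 of 8 (3), nuclear pore genes 7 of 10 (1) and nucleolar genes 6 of 10 (0). Replication genes had 16 of 31 (3), repair genes 17 of 32 (1) and mitosis genes 14 of 25 (4). Deoxynucleotide synthesis had 4 of 8 (1), tubulin genes 4 of 8 (0) and histone chaperones 4 of 9 (1). Cyclin and kinase genes had 3 of 9 (0), splicing genes 5 of 13 (2) and apoptosis genes 1 of 3 (0). None of the 3 sites at histone genes and none of the 2 at housekeeping genes was marked in either library. Most lists hold few sites, and the differences were not tested. The site at EZH2 was marked in both libraries, with a -log10 q of 4.61 in the control and 10.9 in shE2F1, and that at RBL1 with 4.16 and 27.4. The E2F1 promoter was marked in shE2F1 alone, with a -log10 q of 2.96. Among the 10 strongest core sites of untreated cells, FAM111A, MDC1/TUBB, HMGB2 and the site near H2BC17 were marked in neither, as was PCNA, ranked 15. KIF15/KIAA1143 (-log10 q of 15.4 in the control and 28.6 in shE2F1) and CENPK/PPWD1 (3.14 and 14.1) were marked in both, like EZH2. CDKN2D (3.59), NOLC1 (6.15) and GORASP2 (3.29) were marked in shE2F1 alone. Of the 254 core sites with the highest untreated fold, 131 (51.6%, 45.2 to 57.9) were marked in shE2F1, beside 48.8% of all core sites.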

How the data were processed

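ChIP-seq peak lists from 5 libraries were used, 1 per group, and the input library had no peak list here. Per the submitters' processing notes and the study's methods, the authors trimmed reads with cutadapt 4.5, aligned them to GRCh38 (hg38) with Bowtie2 2.5.2, handled duplicates and files with Picard and SAMtools, and called peaks with MACS2 2.2.9.1 at a q of 0.01, with a broad cutoff of 0.1 for H3K27me3. The labels give sonication for all libraries, and the methods give micrococcal nuclease for histone marks. The deposited columns are a fold enrichment over local background, a −log10 p, a −log10 q and a score, which is 10 times the −log10 q in nearly all peaks. As deposited, the lists give no read totals, so depth was read from the lowest background and the fragments at summits.

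Fragments n and background b were solved from fold = (n + 1)/(b + 1) and the Poisson tail, which was tested on simulated peaks. TSSs, exons and 19962 protein-coding genes came from GENCODE 44, on autosomes and X, and sequences from GRCh38. Shares have exact Clopper-Pearson 95% intervals, which cover counting error only. The interval of a fragment ratio is the exact binomial interval of its share, scaled by the lowest backgrounds. The comparison peaks are the 6390 DMSO peaks that overlap a GSK126 peak by at least 1 bp and no untreated peak, 5376 of them within 1 kb of a TSS. Members and gene lists were chosen with earlier results of these data known. Named sites are the 10 strongest in untreated cells, the 5 strongest in DMSO and in GSK126, the 5 weakest, the 5 highest and lowest ratios of GSK126 to DMSO, the 5 strongest away from TSSs, up to 6 per gene list by untreated fold, the strongest H3K27me3 calls and the sites nearest the overlap limit. Python 3.11 with SciPy and pandas was used. Alternatives covered overlap, peak threshold, promoter width, scale, partner, motif and H3K27me3 threshold. A few listed genes are not reported here by name.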

Additional observations from a re-analysis of the deposited data

How the results depend on the processing

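No paired analysis was possible because every group is 1 library, and no library could be left out. Of 27 settings tried, 14 left their result within its interval (for numbers of sites or genes, within 1.5 times). Among them were all those for the number of core sites (857 to 1003) and of target genes (1078 and 1446). The 14 also count the nearest-summit partner, which could not change any result, since each core site had exactly 1 partner in each list. Of the 14, 3 settings, on unshared partners with summits within 200 bp, were chosen after seeing the data. The share of summits near a TSS was 91.6% within 500 bp and 90.5% with protein-coding TSSs only. The order GSK126, DMSO, untreated held 72.9% of sites on fragments over the lowest background and 42.5% on percentiles, and the median log2 ratio of DMSO to untreated was 0.30 on fragments. The motif share was 45.9% within 50 bp and 22.2% with a further T in front. With the summit inside the H3K27me3 peak the shares were 7.09% in the control and 38.2% in shE2F1, a difference of 31.1 points, and with a −log10 q of at least 2 they were 9.06%, 36.3% and 27.3 points. Narrower windows, longer words and stricter peaks lower a share by construction; for the scale of fold the cause was not tested. Untreated summits rest on a median of 19 fragments, which limits every ratio to that library.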
